A study of Mus musculus with 19 samples.

Results

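The genes Zfp700 to Zfp999 are mouse zinc finger genes whose symbols carry a number from this range. They were chosen by symbol alone, and 130 of the 21749 genes in the deposited matrix matched, with 129 distinct symbols because Zfp939 belongs to 2 gene identifiers. A member was set apart as scarce when its mean log2 value over all libraries was under about 3.3, which is 10 on the linear scale; this held for 9 of the 130. The other 121 are called not scarce below. The mean that makes this division is given as a description and was not tested.

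The measured RNA was messenger RNA bound to tagged ribosomes of cortical astrocytes, captured by translating ribosome affinity purification (TRAP). All mice carried the transgene Tg(Aldh1l1-EGFP/Rpl10a), in which sequences of the astrocyte gene Aldh1l1 drive a ribosomal protein L10a fused to EGFP, on a mixed B6 and FVB background. Female mice were collected at the same morning hour in metestrus (8 libraries), on the day of proestrus (3 libraries) or in estrus (4 libraries), and 4 libraries came from males. The labels give no age, say nothing of whether a library is 1 animal or a pool, and give no collection hour for males. P-values therefore measure the spread between libraries, which may be technical. Batches named 2, 3 and 4 hold, in turn, 2, 1 and 5 metestrus libraries. The proestrus libraries are 2 in batch 2 and 1 in batch 3, the estrus libraries 3 in batch 2 and 1 in batch 3, and all 4 males are in batch 4. Sequencing depth is unknown.

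Most genes named Zfp encode proteins with arrays of C2H2 zinc fingers, short folds that hold a zinc ion and contact DNA. Many of them also carry a KRAB domain, which recruits the corepressor Trim28 (KAP1) and, through it, the histone methyltransferase Setdb1 and heterochromatin proteins. A large part of this family binds and silences endogenous retroviruses and other transposable elements. The genes often lie in clusters of recent duplicates, so that neighbours can be close in sequence.

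The libraries held transcripts of astrocytes and, beside them, of other cells. The mean of 10 astrocyte markers ran from 13.37 to 14.35 over the libraries of all groups and that of 10 neuron markers from 12.39 to 12.89. The group means of 8 oligodendrocyte markers lay between 10.36 (metestrus) and 10.75 (estrus), and 7 microglial markers ran from 7.69 to 8.52. A value of a member can therefore come from cells other than astrocytes, and fewer cells of a type cannot be told apart from less RNA per cell. Endothelial markers (6 genes) were lowest in estrus, at 3.45 to 4.73 against 4.56 to 5.50 in proestrus, 4.58 to 5.92 in metestrus and 5.06 to 7.02 in males. Choroid plexus and ependymal markers (6 genes) stood at 5.12 to 5.45 in proestrus, 4.56 to 7.63 in metestrus, 5.44 to 6.02 in estrus and 4.51 to 7.47 in males. In limma, 0 of these 47 markers passed the threshold in any of the 4 comparisons below. Of all tested genes at most 0.988% passed in any 1 comparison, so nothing is read from this count.

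Promoter windows are printed for the 5 members that passed the threshold in a comparison below, as the place where such a difference could be followed up. RefSeq windows (build GRCm38.p6, 250 bases before to 50 after a start) were found for 108 of the 130 members by symbol or by the older symbol of the same gene identifier. Each runs 5′ to 3′ on the strand of the gene, and capitals mark CG dinucleotides. Zfp873 has 2 nearly coincident windows, of which the first is shown, and Zfp747l1 is listed under its older symbol 9130019O22Rik. The deposited values were made on another build, GRCm39, so these positions belong to the RefSeq table alone.
Zfp747l1, chr7:127387117-127387416, minus strand: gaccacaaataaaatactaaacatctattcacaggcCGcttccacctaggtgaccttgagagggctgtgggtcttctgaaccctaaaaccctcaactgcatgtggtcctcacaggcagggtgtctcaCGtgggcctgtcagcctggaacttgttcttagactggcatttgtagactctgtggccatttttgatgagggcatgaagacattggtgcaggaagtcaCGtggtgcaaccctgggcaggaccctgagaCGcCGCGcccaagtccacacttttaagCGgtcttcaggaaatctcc
Zfp873, chr10:82047873-82048172, plus strand: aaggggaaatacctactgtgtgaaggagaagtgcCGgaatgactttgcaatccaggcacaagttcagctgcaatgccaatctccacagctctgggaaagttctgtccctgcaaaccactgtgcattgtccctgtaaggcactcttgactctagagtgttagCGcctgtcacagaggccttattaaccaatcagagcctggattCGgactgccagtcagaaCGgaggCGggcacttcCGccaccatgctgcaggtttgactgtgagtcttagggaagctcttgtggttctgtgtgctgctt
Zfp879, chr11:50841503-50841802, minus strand: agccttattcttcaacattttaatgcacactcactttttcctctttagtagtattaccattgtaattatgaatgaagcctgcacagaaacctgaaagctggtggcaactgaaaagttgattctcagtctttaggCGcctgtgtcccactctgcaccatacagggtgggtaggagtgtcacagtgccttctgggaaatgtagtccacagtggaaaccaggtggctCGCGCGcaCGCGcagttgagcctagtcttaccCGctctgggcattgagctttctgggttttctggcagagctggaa
Zfp712, chr13:67061121-67061420, minus strand: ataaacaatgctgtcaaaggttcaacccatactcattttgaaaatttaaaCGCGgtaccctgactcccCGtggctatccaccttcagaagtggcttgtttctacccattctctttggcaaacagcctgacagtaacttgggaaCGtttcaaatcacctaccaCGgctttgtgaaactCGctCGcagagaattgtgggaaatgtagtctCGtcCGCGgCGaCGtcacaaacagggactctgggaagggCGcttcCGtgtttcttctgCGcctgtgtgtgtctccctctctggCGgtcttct
Zfp784, chr7:5038397-5038696, minus strand: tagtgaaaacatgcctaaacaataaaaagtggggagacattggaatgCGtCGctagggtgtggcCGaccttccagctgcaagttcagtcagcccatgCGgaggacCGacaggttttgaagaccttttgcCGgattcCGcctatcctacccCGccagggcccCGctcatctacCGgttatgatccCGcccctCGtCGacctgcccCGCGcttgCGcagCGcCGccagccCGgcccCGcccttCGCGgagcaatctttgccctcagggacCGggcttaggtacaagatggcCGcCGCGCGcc

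These windows differ in their density of CG dinucleotides. Zfp784 holds 27 and Zfp712 holds 16, whereas Zfp747l1 and Zfp879 hold 7 each and Zfp873 holds 6. The median was 10 over the 127 windows of members, 16 over 277 windows of other Zfp genes and 7 over all 32544 windows of this length. On both strands, 4 motifs were searched. The palindromic core of the estrogen response element, GGTCA and TGACC with any 3 bases between them, was found in 0 of the 127 windows of members, 0 of the 277 of other Zfp genes and 0.0707% of all windows. The ETS core CCGGAAG was found in 22 member windows (17.3%, against 8.91% of all windows and 22.7% of those of other Zfp genes), and in none of the 5 shown. The site of NRF1, GCGC and TGCGC with any single base between them, was found in 5 member windows (3.94%, against 4.63% of all and 10.5% of those of other Zfp genes), and Zfp879 and Zfp784 are among them. AAGATGGCG, the core of the YY1 site, was found in 1 (0.787%, against 1.41% of all and 3.61% of those of other Zfp genes). None of the 4 motifs holds another. A match describes the letters of the window, and the absence of one says nothing about the factor.

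As a group the members were moderately abundant. Their mean log2 values ran from 0.849 to 13.3 with a median of 7.50 and quartiles of 6.19 and 8.44, beside a median of 7.89 for the 263 other Zfp genes and 7.28 for all genes. Scarce genes made up 6.92% of the members, 3.04% of the other Zfp genes and 22.1% of all genes. At the upper end, 7 members (5.38%) had a mean of 10 or more, as did 21.4% of all genes. Between these ends lay 20 members with a mean of 3.3 to 6, 50 with 6 to 8 and 44 with 8 to 10. In all 19 libraries 100 members stood at or above 3.3.

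**Figure D1:**
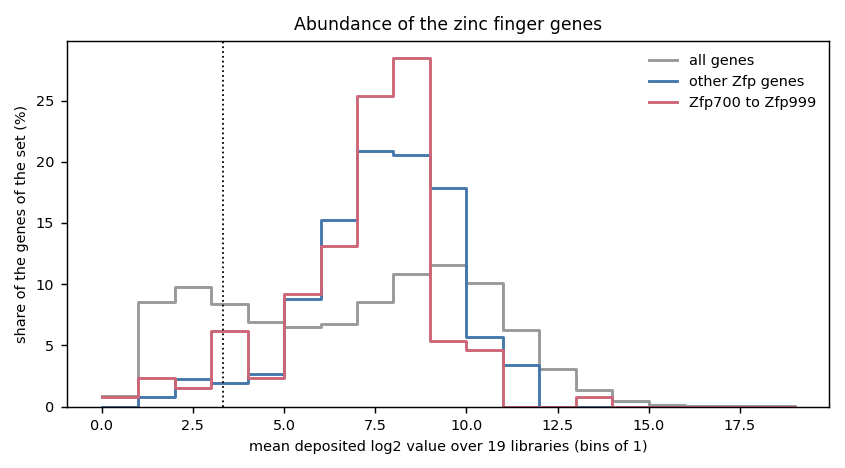
Distribution of the mean deposited log2 value over 19 libraries for Zfp700 to Zfp999 (130 genes), the other Zfp genes (263) and all genes (21749), as the share of each set in bins of 1. The dotted line marks 3.3, and the members crowd between 6 and 9, where all genes are spread more widely.

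The most abundant member was Zfp706, which encodes a small zinc finger protein known from the exit of embryonic stem cells from self-renewal. It stood at 13.48 ± 0.39 in males (SD, n = 4), 13.31 ± 0.21 in metestrus (SD, n = 8) and 13.30 ± 0.27 in estrus (SD, n = 4), and was lowest in proestrus at 13.09 ± 0.16 (SD, n = 3). The 4 groups overlapped, and the log2 fold changes were -0.26 in proestrus against metestrus and 0.18 in males against metestrus (limma adjusted p = 0.652 and 0.992). Levels of different genes were compared per kilobase of annotated exon, by subtracting the log2 of the exon length in kilobases from the mean log2 value, for the 127 members with a length in GENCODE release M21. On that scale Zfp706 was again first at 10.99, followed by Zfp771 at 9.50, Zfp931 at 9.48, Zfp968-ps at 8.74, Zfp703 at 8.65 and Zfp938 at 8.59. The median over the 127 was 5.48. Each length is the union of all annotated exons of a gene, which can exceed that of the transcript present. Whether the deposited values were already adjusted for length is not given, so the order per kilobase is uncertain. The whole of the longest Zfp968-ps transcript matched Gm14327 at 97% identity or more, so its value is uncertain. Zfp871 and Zfp704, ranked 3 and 5 by mean value at 10.52 and 10.44, ranked 17 and 28 per kilobase at 7.05 and 6.51, since their exons span 11116 and 15255 bases. Zfp740, Zfp955b and Zfp710 complete the 10 highest means at 10.16, 9.60 and 9.49, and stood at 7.81, 7.07 and 6.70 per kilobase. Of the longest Zfp955b transcript 61.5% matched Zfp955a at 97% identity or more, so the Zfp955b value is uncertain as well.

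None of the 7 members with a mean of 10 or more passed the threshold in limma in any of the 4 comparisons below. At most 0.988% of all tested genes passed in any 1 comparison, so nothing is read from a count over 7 genes. Zfp771 had the smallest spread of all members that were not scarce (SD 0.18 over 19 libraries) and averaged 10.70 in proestrus, 10.59 in males, 10.49 in metestrus and 10.32 in estrus. Zfp703, whose human counterpart is amplified in luminal breast cancer, averaged 10.80 ± 0.26 in males (SD, n = 4), 10.51 ± 0.17 in metestrus (SD, n = 8), 10.10 ± 0.23 in proestrus (SD, n = 3) and, lowest, 10.09 ± 0.14 in estrus (SD, n = 4). The males (10.51 or more) overlapped neither the estrus nor the proestrus libraries for this gene, whereas metestrus overlapped each group, estrus only at 10.26. All males are in batch 4 and all estrus and proestrus libraries in batches 2 and 3. That difference therefore cannot be told apart from batch. Its fold change from metestrus was -0.40 in proestrus, -0.41 in estrus and 0.29 in males (limma adjusted p = 0.368, 0.393 and 0.959). Zfp931 stood 0.85 lower in proestrus than in metestrus (SE 0.32, limma adjusted p = 0.241), and its libraries overlapped at 9.61 to 10.65 and 9.96 to 11.34. Zfp740 and Zfp938 stood 0.72 and 0.59 lower in estrus than in metestrus (limma adjusted p = 0.280 and 0.304). For Zfp938 the 4 estrus libraries (8.95 to 9.69) lay just under the 8 metestrus libraries (9.71 to 10.03).

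Across the 121 members that were not scarce, the 4 group means lay within 0.5 for 35 members, 0.5 to 1 apart for 45, 1 to 2 apart for 27 and more than 2 apart for 14. The median distance between the highest and the lowest group mean was 0.74. The lowest group mean fell in proestrus for 43 of them, in estrus for 32, in males for 30 and in metestrus for 16. Groups of 3 or 4 libraries reach extreme means more easily than the group of 8. The group means are also not adjusted for batch. Males are only in batch 4 and proestrus and estrus only in batches 2 and 3, so distances between them cannot be told apart from batch. The median over these members was 7.84 in estrus, 7.72 in proestrus, 7.69 in metestrus and 7.68 in males. Over all 130 members, scarce ones included, it was 7.61, 7.66, 7.53 and 7.55 in the same order. Over all genes, scarce ones included, it was 7.26, 7.28, 7.32 and 7.36. The order of the groups thus changed with the set of members. The spread of members around the fitted group and batch means was larger than that of all genes at like levels: the median residual SD was 1.46 against 0.953 for means of 3.3 to 6, 0.602 against 0.494 for 6 to 8 and 0.391 against 0.328 for 8 to 10.

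Proestrus was compared with metestrus first. In this comparison 2 members fell and 2 rose: Zfp747l1 and Zfp873 were 7.92-fold and 6.97-fold lower in proestrus, and Zfp879 and Zfp712 were 4.79-fold and 14.6-fold higher. The 4 are 3.10% of the 129 members tested, where 0.988% of all 20645 tested genes passed (0.233% higher and 0.756% lower in proestrus). Zfp747l1, Zfp873 and Zfp879 were known from earlier results of these data when the set was proposed, so nothing is read from this share. Over all members, 51 stood higher and 78 lower in proestrus with a median of -0.16, and over all genes 8640 higher and 12005 lower with a median of -0.09. An unadjusted p under 0.05 was found for 20 members (15.5%) and for 13.1% of all genes. All 20 are among the 121 members not scarce (16.5%).

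Zfp747l1 (ENSMUSG00000030823.7) had the lowest p of all members, and its product is named only by its likeness to Zfp747. Its metestrus libraries ran from 5.99 through a median of 6.14 to 7.04. The 3 proestrus libraries stood at 3.52, 3.79 and 2.86, and the 4 estrus libraries at 5.39, 5.78, 6.32 and 4.92. The males stood at 6.47, 6.59, 6.31 and 6.85. All proestrus libraries lay below every library of the other 3 groups, and 1 of them lay under 3.3. The log2 fold change in proestrus against metestrus was -2.99 ± 0.43 (SE, limma adjusted p = 0.00145), and it was -2.90 within batch 2 and -3.17 within batch 3. Leaving out each of the 11 libraries in turn gave values from -3.26 to -2.79, and the call held each time. The 5 metestrus libraries of batch 4 could change only the spread there, since stage fold changes rest on batches 2 and 3.

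Zfp873 (ENSMUSG00000061371.8) is annotated as a zinc finger protein. It ran from 6.30 through a median of 6.81 to 7.20 in metestrus. Proestrus libraries stood at 4.12, 3.50 and 4.19, estrus libraries at 6.46, 6.48, 5.18 and 4.46, and males at 7.40, 5.58, 7.03 and 7.14. The proestrus libraries again lay below all others, but the nearest estrus library was only slightly higher. The log2 fold change was -2.80 ± 0.53 (SE, limma adjusted p = 0.0107), with -2.86 within batch 2 and -2.68 within batch 3. The call was lost without Metestrus replicate 1, Metestrus replicate 3 or Proestrus replicate 2 (highest adjusted p = 0.0596).

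Zfp879 (ENSMUSG00000044296.11) is a further zinc finger gene, annotated beside Zfp354c, and it went the other way. Metestrus libraries ran from 5.11 through a median of 5.39 to 5.68 and proestrus libraries stood at 7.23, 7.77 and 7.95. Estrus libraries lay between these at 6.47, 6.51, 7.20 and 6.06, and males at 5.69, 5.26, 5.69 and 5.07. The 3 stages formed a sequence without overlap, and the males covered the metestrus range. The log2 fold change in proestrus against metestrus was 2.26 ± 0.39 (SE, limma adjusted p = 0.00722), with 1.98 within batch 2 and 2.83 within batch 3, and the call held without any 1 of the 11 libraries.

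Zfp712 (ENSMUSG00000090641.3) had the largest fold change of the members in this comparison and a wide spread. Metestrus libraries ran from 2.08 through a median of 4.17 to 5.57. Proestrus libraries stood at 8.97, 7.39 and 7.61, estrus libraries at 7.31, 8.09, 4.96 and 8.04, and males at 4.30, 3.84, 5.12 and 4.54. Proestrus lay above all metestrus and male libraries, and 3 of the 4 estrus libraries stood with proestrus. The log2 fold change was 3.87 ± 0.76 (SE, limma adjusted p = 0.0134), with 4.78 within batch 2 and 2.03 within batch 3. Its call was lost without Metestrus replicate 2, the library at 2.08, or without Proestrus replicate 1, the library at 8.97 (highest adjusted p = 0.112).

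**Figure D2:**
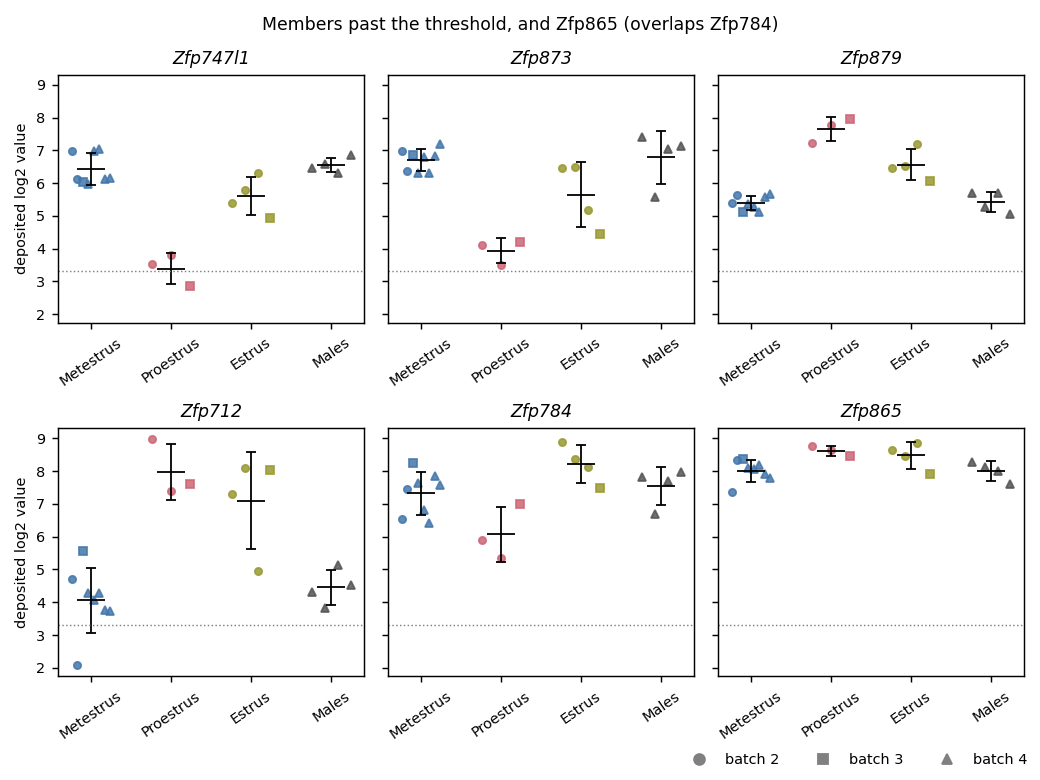
Deposited log2 value of each library for the 5 members that passed the threshold in a comparison and for Zfp865, which overlaps Zfp784. Points are libraries (the shape gives the batch), bars the group mean and SD, and the dotted line 3.3; Zfp747l1 and Zfp873 are lowest and Zfp879 highest in the 3 proestrus libraries.

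The deposited matrix lacks 4 directions of variation among libraries, and when those that batch does not span were counted in the model, 0.363% of all genes passed and all 4 calls remained (adjusted p = 0.00964 for Zfp747l1, 0.0357 for Zfp879, 0.0381 for Zfp873 and 0.0387 for Zfp712). A fit on batches 2 and 3 alone, which carry the stage comparisons, must give the same fold changes, since batch 4 holds no proestrus or estrus library. In it 0 of the 4 passed in limma (adjusted p = 0.153 for Zfp747l1 and Zfp879, 0.204 for Zfp873 and 0.188 for Zfp712). There 12 members had an unadjusted p under 0.05 in limma, and the share over all genes is not given.

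Estrus was compared with proestrus next, and in it 2 members rose and 0 fell. This comparison shares the 3 proestrus libraries with the one above. Zfp747l1 was 4.44-fold higher in estrus, a log2 fold change of 2.15 ± 0.40 (SE, limma adjusted p = 0.0109), with 2.18 within batch 2 and 2.06 within batch 3. The call was lost without Proestrus replicate 1 (adjusted p = 0.0589). Zfp784 (ENSMUSG00000043290.7), another zinc finger gene, was 4.55-fold higher. Its proestrus libraries stood at 5.90, 5.34 and 6.99 and its estrus libraries at 8.89, 8.38, 8.14 and 7.49, without overlap. In metestrus it ran from 6.42 through a median of 7.52 to 8.26, and males stood at 7.83, 6.69, 7.69 and 7.98, so that both groups overlapped proestrus and estrus. The log2 fold change in estrus against proestrus was 2.19 ± 0.46 (SE, limma adjusted p = 0.0242), with 2.85 within batch 2 but 0.49 within batch 3, where 1 library stands on each side. The call was lost without Proestrus replicate 1 or 2 and without Estrus replicate 1 or 2 (highest adjusted p = 0.126).

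The 2 members are 1.55% of those tested, beside 0.94% of all genes (0.596% higher and 0.344% lower in estrus). An unadjusted p under 0.05 was found for 19 members (14.7%), against 14.5% of all genes, and the median over members was 0.06, against 0.02 over all genes. Among the 121 members not scarce the count was 16 (13.2%) and the median 0.04. With the missing directions counted, 0.252% of all genes passed and neither call held (adjusted p = 0.0505 for Zfp747l1 and 0.0662 for Zfp784), and neither did on batches 2 and 3 alone (0.236 and 0.162). Zfp873 stood 1.68 higher in estrus than in proestrus (SE 0.50) and Zfp879 1.11 lower (SE 0.37), and neither passed (limma adjusted p = 0.0994 and 0.142). For both genes the 3 proestrus and 4 estrus libraries did not overlap. Endothelial markers stood lower in estrus than in proestrus, with 5 of 6 negative (Tek at 0.49 against 3.58), and 0 of the 6 passed; their part in these differences was not tested.

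**Figure D3:**
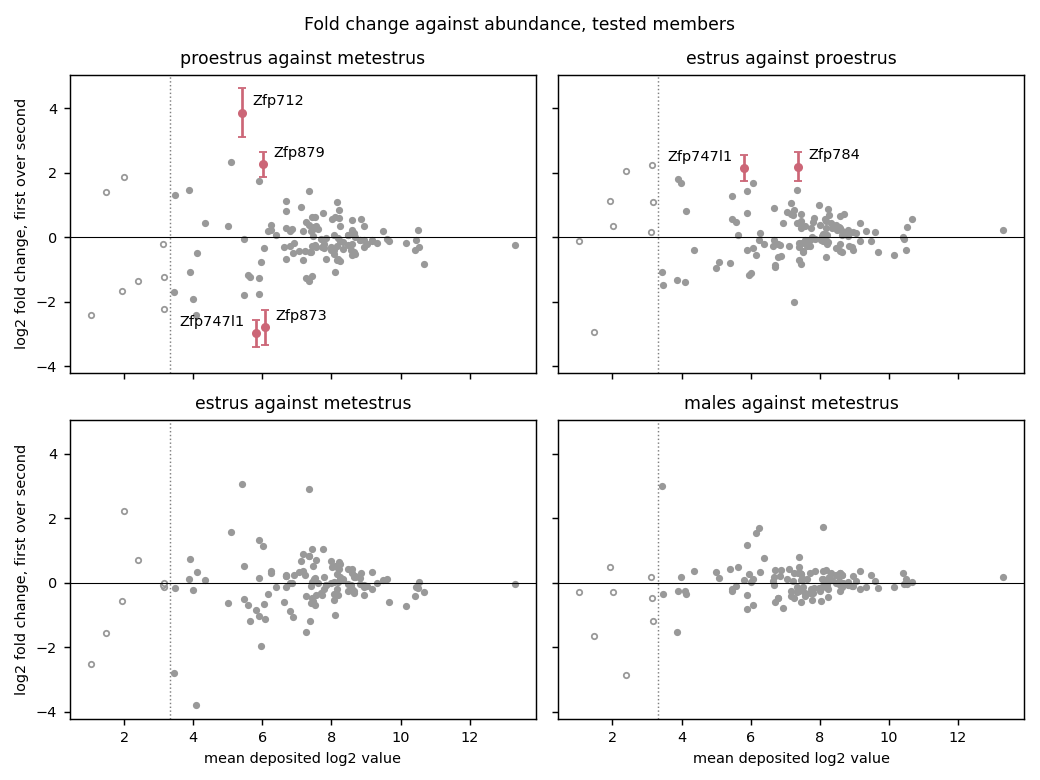
Log2 fold change of the 129 tested members against their mean deposited log2 value, for the 4 comparisons (first group over second). Coloured points with SE bars passed an adjusted p of 0.05, open points are scarce members, and the dotted line marks 3.3; the 5 genes that passed have means between 5.40 and 7.36.

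Zfp784 shares its place in the genome with other genes of the matrix. In GENCODE M21 it overlaps Zfp865, also a member, and Ccdc106, both on the opposite strand, and 94.8% of its longest transcript matched a Zfp865 transcript at 97% identity or more. The sources used here do not say whether counting used strand, so reads of these genes may not have been told apart. Zfp865 stood at 8.62 ± 0.15 in proestrus (SD, n = 3), 8.48 ± 0.40 in estrus (SD, n = 4), 8.01 ± 0.33 in metestrus (SD, n = 8) and 8.0 ± 0.30 in males (SD, n = 4). Its fold change in estrus against proestrus was -0.15 (SE 0.27, limma adjusted p = 0.843).

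Neighbouring members did not share the differences of Zfp747l1 past the threshold. In GENCODE M21, 59 members stand in 22 runs of at least 2 members with no other protein-coding gene between them, and Zfp747l1 is the middle of a run with Zfp768, Zfp747, Zfp764l1 and Zfp764. In proestrus against metestrus, Zfp747 stood at 0.94 (SE 0.39, limma adjusted p = 0.289), Zfp764l1 at -0.69 (SE 0.63, 0.687), Zfp768 at -0.45 (SE 0.29, 0.549) and Zfp764 at -0.31 (SE 0.71, 0.898). The differences between these neighbours were not tested. Of the longest Zfp747l1 transcript, 6.09% matched Zfp747 at 97% identity or more. Zfp712 and Zfp873 also have a member beside them. Zfp708 lies next to Zfp712 and stood at -1.25 (SE 0.95, limma adjusted p = 0.615), and Zfp781b lies next to Zfp873 and stood at -1.79 (SE 1.30, limma adjusted p = 0.596). All of the longest Zfp708 transcript matched Gm28557, and all of that of Zfp781b matched Gm3055, so their own values are uncertain.

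**Figure D4:**
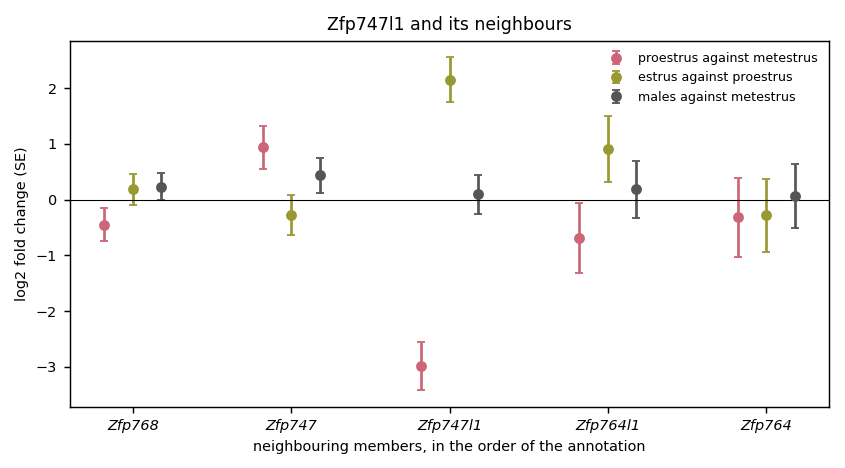
Log2 fold change with SE for Zfp747l1 and the 4 members that neighbour it, in annotation order, for 3 comparisons (first group over second). Zfp747l1 stands at -2.99 in proestrus against metestrus and 2.15 in estrus against proestrus, while its neighbours lie between -0.69 and 0.94.

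In estrus against metestrus 0 of 129 members passed in limma, where 0.0872% of all genes did. An unadjusted p under 0.05 was found for 16 members (12.4%), beside 11.3% of all genes. Among the 121 members not scarce it was found for 15 (12.4%). The number of members that passed was 8 (3 higher and 5 lower in estrus) without a batch term in the model. The share of all genes that passed under that model is not given, so nothing is read from this count. The lowest p belonged to Zfp712, which stood 3.06 higher in estrus (SE 0.71, limma adjusted p = 0.0988) and passed when Estrus replicate 3, its low library at 4.96, was left out (adjusted p = 0.0388). Without a batch term Zfp712, Zfp773 and Zfp948 were among the 8 that passed (limma adjusted p = 0.00568, 0.0157 and 0.0211). In that model 5 metestrus libraries come from batch 4, which holds no estrus library. These 3 calls therefore cannot be told apart from batch, and nothing is read from them. Zfp773 stood at 0.34, -0.61, 4.61 and 2.06 in estrus, and from 3.41 through a median of 5.38 to 6.41 in metestrus. The groups overlapped through the third estrus library, and the log2 fold change was -3.80 ± 1.10 (SE, limma adjusted p = 0.192). Zfp948 stood at 6.63, 6.49, 4.90 and 7.33 in estrus and from 7.43 through a median of 7.48 to 7.90 in metestrus, without overlap. Its log2 fold change was -1.19 ± 0.37 (SE, limma adjusted p = 0.219), and -0.75 without Estrus replicate 3, the library at 4.90. Zfp879 lay 1.15 higher in estrus than in metestrus (SE 0.37, limma adjusted p = 0.235).

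Males and metestrus females were compared within batch 4, and 0 of 129 members passed in limma, beside 0.0242% of all genes. An unadjusted p under 0.05 was found for 8 members (6.20%) and for 5.33% of all genes. Among the 121 members not scarce it was found for 7 (5.79%). The 5 members that passed in a stage comparison lay close to their metestrus level in males: the log2 fold changes were 0.09 for Zfp747l1, 0.10 for Zfp873, 0.03 for Zfp879, 0.43 for Zfp712 and 0.29 for Zfp784, with SE from 0.32 to 0.62. Metestrus ranges in this paragraph cover all 8 libraries, although only 5 of them are in batch 4. The lowest p values were those of 3 members. Zfp820, which is scarce, stood at -0.42, 0.77, 2.18 and -1.98 in males and from 1.92 through 2.83 to 5.50 in metestrus (-2.87, limma adjusted p = 0.763). Its metestrus libraries of batch 4 ran from 2.76 to 3.41. Zfp977, with a mean just above the limit of scarcity, stood at 7.12, 5.67, 5.35 and 7.93 in males and from 1.5 through 4.24 to 5.29 in metestrus, without overlap. Its mean over all libraries exceeds that limit only through the males, so nothing is read from its place among members not scarce. Its log2 fold change of 3.01 ± 1.09 (SE) had a limma adjusted p of 0.856. Zfp850 stood at 6.90, 7.06, 7.92 and 7.93 in males and from 3.27 through 6.05 to 7.22 in metestrus (1.53, limma adjusted p = 0.856). Without Metestrus replicate 4, the library at 3.27, this difference was 0.87. Zfp948 was at 8.57, 8.26, 8.24 and 8.23 in males, above all metestrus libraries (0.78, limma adjusted p = 0.868).

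The 9 scarce members varied too much between libraries to be ordered by group. From the scarcest they are Zfp872, Zfp993, Zfp939 under the identifier ENSMUSG00000030424.18, Zfp947, Zfp804b, Zfp820, Zfp853, Zfp979 and Zfp992, with means of 0.85, 1.04, 1.47, 1.94, 2.00, 2.40, 3.11, 3.15 and 3.16. Each reached 3.3 in at least 1 and at most 10 libraries, and the SD over libraries ran from 0.99 for Zfp853 to 2.05 for Zfp939. The filter for testing asked for 3.3 in at least 3 libraries, and 8 of the 9 met it. A scarce gene that met it only through 1 group had to differ there, so no count over these 8 alone is given as a result. Counts over the 129 tested members include them. Zfp872 met 3.3 only in Estrus replicate 2, at 4.28, and was not tested. Zfp993 stood at 0 or lower in all proestrus (lowest -0.73) and estrus libraries (lowest -1.10), and passed the limit at 3.38 and 3.50 in 2 metestrus libraries and at 4.18 in 1 male. Of its longest transcript 98.7% matched Zfp991 at 97% identity or more, a member that averaged 5.46. Zfp804b, a relative of Zfp804a, reached 6.20 in Estrus replicate 1 and stood under 3.3 in all males.

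**Figure D5:**
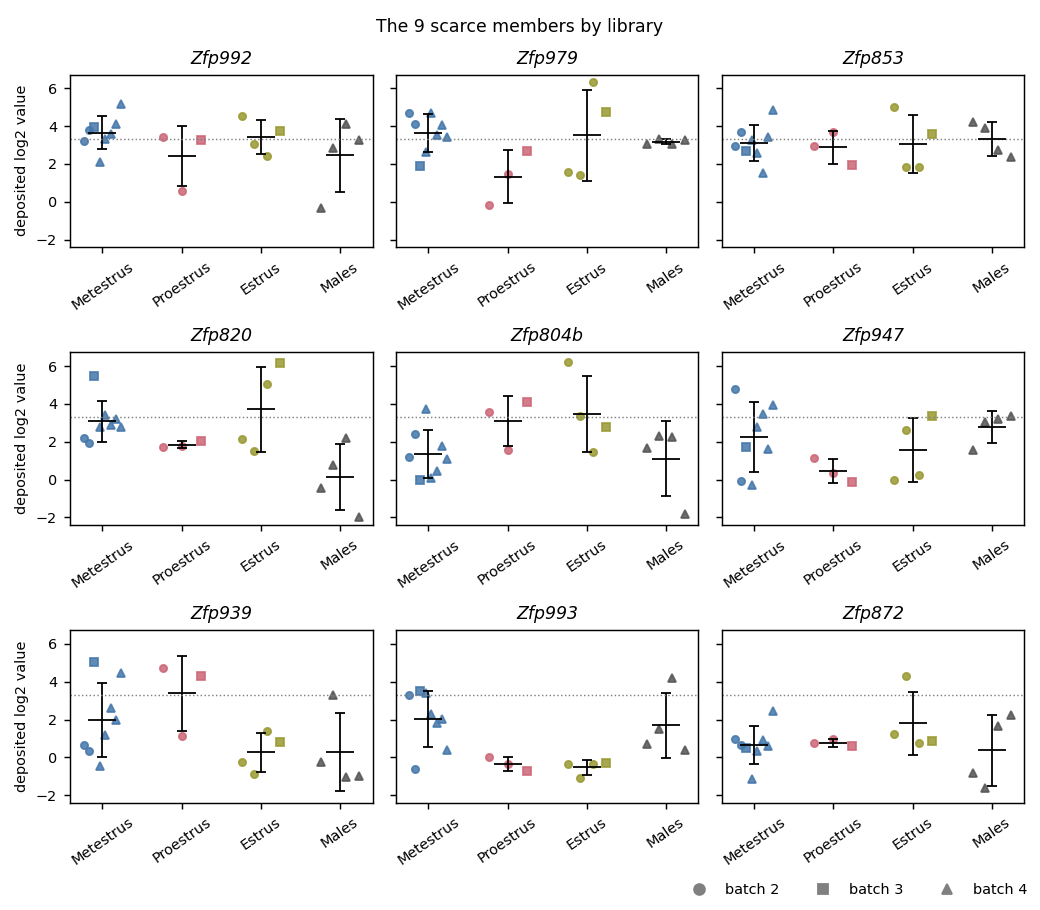
Deposited log2 value of each library for the 9 members with a mean under 3.3 (dotted line). Points are libraries (the shape gives the batch) and bars the group mean and SD; the SD over all libraries runs from 0.99 to 2.05, and single libraries such as Zfp872 in estrus at 4.28 stand far above the rest of their group.

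Around the limit of 3.3 the values form no gap. Just above it lie Zfp977 at 3.43, Zfp982 at 3.48 and Zfp951 at 3.88, and just below it Zfp992 at 3.16, Zfp979 at 3.15 and Zfp853 at 3.11. Zfp982 ran from 1.29 to 6.68 over the 19 libraries and Zfp951 from -0.39 to 6.98, with SDs of 1.51 and 2.05. The second gene named Zfp939 (ENSMUSG00000121502.2) averaged 5.96. The largest spread among members that were not scarce was that of Zfp965, with an SD of 2.84 and values from 0.91 to 10.91. Its libraries in metestrus ran from 2.05 to 9.68, and 100% of its longest transcript matched Gm14327, another gene of the matrix, at 97% identity or more. In all, 19 members had over 50% of their longest transcript matched in this way by another gene, and their separate values are uncertain.

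Members with a known function were described too, chosen for that function after their values were seen. Zfp809, which silences murine leukemia virus proviruses through Trim28, averaged 7.73, and Zfp932, a repressor of endogenous retroviruses, 8.95. Zfp708, which binds a retroviral repeat in the mouse genome, averaged 5.64, and Zfp746 (PARIS), a substrate of the ubiquitin ligase parkin, 9.04. Zfp804a, whose human counterpart lies at a risk locus for schizophrenia, averaged 7.44, and Zfp711, the counterpart of a human gene of X-linked intellectual disability, 6.24. None of these 6 passed in limma in any of the 4 comparisons, where at most 0.988% of all tested genes did, so nothing is read from this. The value of Zfp711 in males was 7.44 ± 1.02 (SD, n = 4) against 5.75 ± 1.26 in metestrus (SD, n = 8), a log2 fold change of 1.70 with a limma adjusted p of 0.856. Zfp827, known for recruiting a chromatin remodelling complex to telomeres, stood at 9.28 ± 0.40 in proestrus (SD, n = 3) and 8.70 ± 0.15 in metestrus (SD, n = 8), a log2 fold change of 0.58 (limma adjusted p = 0.310).

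The cofactors through which KRAB zinc finger proteins act were examined as a list. Of 41 listed genes 40 were found and tested, and 0 of 40 passed in limma in each of the 4 comparisons. All tested genes passed at 0.988% in proestrus against metestrus and 0.94% in estrus against proestrus. The shares were 0.0872% in estrus against metestrus and 0.0242% in males against metestrus. So few calls are due among 40 genes that nothing is read from this count. Their mean was 9.79 ± 0.22 in estrus (SD, n = 4), 9.73 ± 0.12 in metestrus (SD, n = 8), 9.70 ± 0.13 in males (SD, n = 4), with the lowest mean in proestrus at 9.63 ± 0.15 (SD, n = 3). Trim28, the corepressor that KRAB domains bind, averaged 10.63, with log2 fold changes of 0.10 in proestrus against metestrus and 0.04 in estrus against proestrus (SE 0.22 and 0.20). Setdb1, which places the repressive mark on histone H3, averaged 8.48 and stood at 0.31 and -0.03 (SE 0.30 and 0.28). The heterochromatin proteins Cbx1, Cbx3 and Cbx5 averaged 10.62, 12.92 and 11.77. The lowest p in the list was that of Chd3, a remodeller of the NuRD complex, which stood 0.57 lower in estrus than in proestrus (SE 0.17, limma adjusted p = 0.0991). Over the list 15 of 40 were higher in proestrus than in metestrus, with a median of -0.10, and 26 of 40 were higher in estrus than in proestrus, with a median of 0.10. Over all tested genes 41.9% and 52.0% were higher, in the same order, with medians of -0.09 and 0.02.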

How the data were processed

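RNA sequencing of ribosome-bound messenger RNA gave 19 libraries in 4 groups. The authors deposited log2 values between -5.12 and 19.0. Per the submitters' processing notes, the tools included edgeR, Salmon and STAR and the build was GRCm39; for versions, pseudocount, scaling and filters: not given in the sources used here. That the log has base 2 was inferred, since back-transformed libraries total 1.98e7 to 2.56e7. Without counts, depth is unknown and counting intervals are left out. After the groups were fitted the values spanned 11 dimensions in place of 15, so 4 directions of variation are missing; of the first of the 2 batch directions 98.6% lay in them and of the second 9.95%.

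Genes with at least 3.3 in at least 3 libraries were tested (20645 genes, 94.9%). A linear model with terms for group and batch was fitted with limma 3.58.1 (R 4.3.3; trend, robust variance prior, 13 residual degrees of freedom), using every library. Tests were two-sided, with Benjamini-Hochberg adjustment across the tested genes and a threshold of 0.05. The 13 degrees of freedom exceed what the rank allows, so p-values are somewhat too small; an alternative model that also holds the missing directions outside batch leaves 11. Stage fold changes rest on batches 2 and 3, and males against metestrus on batch 4. The fit was tested on simulated data. The plan allowed for counts or linear values; the log2 values were used as they are. Exon lengths, neighbours and transcripts came from GENCODE M21 (GRCm38, matched by identifier for 127 members), transcripts were matched with blastn 2.17.0, and promoters came from RefSeq (GRCm38.p6).

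The members and gene lists were chosen with earlier results of these data known. Named genes were those past the threshold, the 3 with the lowest p per comparison, the 10 highest means, the 3 on each side of 3.3, the 6 scarcest, the largest and smallest SD among members not scarce, and Zfp747l1, Zfp873 and Zfp879. Other members named as neighbours, overlapping or near-identical genes or for a known function lie outside this rule. The alternatives tried were no batch term, missing directions counted, median centring, no filter or one on the mean, no trend or robust prior, batches alone, a replicate block and leaving out each library.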

Additional observations from a re-analysis of the deposited data

Results flagged for a closer look

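Among the 31 named members, 93 sets of 4 or 8 library values from 1 group were checked for a library far from the others, and 8 were found, where chance alone gives about 1 in 20. Zfp965 stood at 0.91 in Males replicate 2, while the other males stood at 7.37 to 7.73. Zfp872 reached 4.28 in Estrus replicate 2 against 0.76 to 1.24 in the other estrus libraries, and Zfp993 stood at -1.10 in the same library against -0.36 to -0.30. Zfp820 stood at 5.50 in Metestrus replicate 3 against 1.92 to 3.41 in the other metestrus libraries. Zfp773 stood at 3.41 in Metestrus replicate 6 against 5.03 to 6.41, and Zfp850 at 3.27 in Metestrus replicate 4 against 5.41 to 7.22. Zfp948 stood at 8.57 in Males replicate 1 against 8.23 to 8.26, and Zfp804b at -1.84 in Males replicate 4 against 1.67 to 2.33. Of these 7 genes beside Zfp965, Zfp872, Zfp993, Zfp820 and Zfp804b are scarce.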

How the results depend on the processing

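The number of members past the threshold was 4 in proestrus against metestrus, 2 in estrus against proestrus and 0 in the other 2 comparisons, and these counts stayed within 1.5 times of themselves with libraries centred on their medians, without a filter, with a filter on the mean and without trend and robust prior. Without a batch term they were 7 in proestrus against metestrus and 8 in estrus against metestrus. On batches 2 and 3 alone they were 0 in proestrus against metestrus and 0 in estrus against proestrus (12 and 14 members with an unadjusted p under 0.05 in limma, with fewer libraries in the fit). The share over all genes is not given for these alternatives or for the unadjusted counts in this paragraph, so nothing is read from them. With the missing directions counted, estrus against proestrus gave 0 (14 unadjusted in limma). Leaving out 1 library gave 3 to 5 members in proestrus against metestrus, 0 to 3 in estrus against proestrus, 0 to 1 in estrus against metestrus and 0 throughout in males against metestrus (5 to 12 unadjusted in limma). Over all genes the counts in these fits were, in the same order, 57 to 188, 60 to 435, 0 to 55 and 5 to 8. Without Proestrus replicate 3, Zfp941 passed as well, and without Estrus replicate 4, Zfp975 passed in estrus against metestrus; both are named after their values were seen. Scarce members numbered 16 under a mean of 4.3 and 5 under 2.3, against 9. Of the fold changes of single members under these alternatives, 219 kept direction and side of the threshold, 18 lost the call, 5 gained it and 0 changed direction. A direction could not change where only the filter or the prior was altered. The same holds where the batches or libraries left out did not carry the comparison, so nothing is read from these numbers. Some batch 4 titles carry numbers shared by males and females: with them as a replicate block, 0 members passed in males against metestrus (3 unadjusted in limma). Same-numbered libraries did not deviate together (correlations 0.16, 0.03, -0.26 and -0.13, own number best for 1 of 4), so the numbers were not taken as pairs. The causes of these changes were not tested.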
